A study of Homo sapiens with 24 samples.

Results

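*TRPS1* lies on the long arm of chromosome 8 and encodes an atypical GATA-family zinc finger protein that represses transcription. Loss of *TRPS1* causes trichorhinophalangeal syndrome, and deletions that also remove *EXT1* cause the contiguous-gene form of that syndrome. The same stretch of 8q is often gained as a block in breast tumors, so its genes tend to share copy number changes. Transcription of *TRPS1* was therefore set beside that of 6 genes around it, *CSMD3*, *RAD21*, *UTP23*, *EXT1*, *MED30* and *SLC30A8*. The 7 genes were taken by name from a count table of 60605 genes, with earlier results of these data known. The question was whether *TRPS1* moved alone, first when a compound that directs its protein to degradation was added and then between cell clones.

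The measurement was PRO-seq (precision run-on sequencing), which counts nascent RNA and so reads engaged polymerase rather than mature RNA. T47D is a luminal, estrogen receptor positive breast cancer cell line. All 24 libraries, controls included, came from T47D cells in which the *TRPS1* gene carries a dTAG degron, a tag that lets the small molecule dTAG-13 direct TRPS1 protein to degradation while the gene stays in place. Clone 28, Clone 35 and Clone 39 were each treated with 100 nM dTAG-13 for 90 minutes or with 0.1% DMSO as the vehicle, with 4 replicates in each of the 6 groups. No untagged cells given dTAG-13 were among the 24 libraries. An effect of the compound and one of TRPS1 loss therefore cannot be told apart in them.

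Each clone is a single line, so a difference between clones is a difference between 3 lines and cannot be assigned to a genotype. Per the study's methods, some genomic copies of *TRPS1* are knocked out in every clone, and the number of such copies is given as a range. The clones may thus differ in genotype at *TRPS1*. The tagged protein is the only TRPS1 made, and all 3 clones were made from cells that had already passed an earlier round of selection and cloning. Which copies the *TRPS1* reads came from could not be told apart. Replicates were cells treated and collected at different times of 1 day, with the treatments collected together, so p-values measure the spread between such collections. In bulk libraries, fewer cells transcribing a gene and less transcription per cell cannot be told apart.

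Libraries held 3226718 to 9575803 counted reads (median 5042122). The summed level of 9 luminal breast markers was 3922 to 6202 CPM (reads per 1000000 counted, with library sizes scaled by TMM) over the 24 libraries. That of 5 basal or mesenchymal markers was 11.6 to 27.1 CPM, that of 3 fibroblast markers 7.70 to 16.6 CPM and that of 3 immune markers 2.34 to 5.89 CPM. All 7 genes passed the filter on low counts and were among the 22326 genes tested.

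*TRPS1* spans positions 115408496 to 115809673 of chromosome 8 on the minus strand (hg38, GENCODE release 44, gene ENSG00000104447). *CSMD3*, which encodes a large transmembrane protein with CUB and sushi domains, lies toward the centromere at 112222928 to 113436939, a gap of 1.97 Mb. The other 5 genes lie toward the telomere. *UTP23*, an assembly factor of the small ribosomal subunit, is at 116766505 to 116849463, and *RAD21*, the kleisin subunit of cohesin, is at 116845934 to 116874776. *SLC30A8*, a zinc transporter best known from pancreatic beta cells, is at 116950273 to 117176714. *MED30*, a subunit of the Mediator coactivator complex, is at 117520713 to 117540262. *EXT1*, a heparan sulfate polymerase, is at 117794490 to 118111826, a gap of 1.98 Mb from *TRPS1*. The 3' ends of *UTP23* and *RAD21* overlap on opposite strands, and *UTP23* also overlaps the start of *EIF3H*. Whether the counting used strand is not given in the sources used here. An antisense gene inside *TRPS1*, *TRPS1-AS1*, had 3 reads over all 24 libraries, against 3830 that the density of *TRPS1* reads would give over its 1.72 kb.

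*TRPS1* was by far the most transcribed of the 7. It held 0.517% to 0.916% of all counted reads, and it was the gene with the most reads in 19 of 24 libraries. Its mean level over the 24 libraries was 7246 CPM, against 203 CPM for *EXT1*, 99.6 for *RAD21*, 70.6 for *UTP23*, 22.1 for *MED30*, 12.6 for *CSMD3* and 2.33 for *SLC30A8*.

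Per kb of gene span, the mean level of *TRPS1* was 18.1 CPM (12.9 to 23.2 over libraries), which placed it 796th of the 22326 genes, whose median was 1.02. *RAD21* followed at 3.45 CPM per kb (2.81 to 3.98), and the ranges of both stood clear of every other member. *MED30* at 1.13, *UTP23* at 0.850 and *EXT1* at 0.641 CPM per kb came next, and the ranges of *MED30* and *UTP23*, and of *UTP23* and *EXT1*, overlapped. *CSMD3* and *SLC30A8* had almost no engaged polymerase, at 0.0103 CPM per kb each, with overlapping ranges. *SLC30A8* had 5 to 25 reads in a library and *CSMD3* 44 to 91. Per kb of exon the order among the middle genes changed, to *EXT1* at 18.9, *MED30* at 15.3, *UTP23* at 13.5 and *RAD21* at 6.93 CPM, with *TRPS1* still highest at 656.

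The treatment was the first comparison. In Clone 28 *TRPS1* had 7335, 7195, 5272 and 5183 CPM in DMSO replicates 1 to 4, and 8249.6, 7865, 6656 and 6304 CPM with dTAG-13. In Clone 35 it had 7832, 7543, 5812 and 5576 CPM in DMSO and 8589.7, 7916, 7321 and 6598 CPM with dTAG-13. In Clone 39 it had 8747, 8043, 6343 and 6435 CPM in DMSO and 9296, 8717, 7619 and 7459 CPM with dTAG-13. The treatment groups overlapped in every clone, yet each dTAG-13 library was above the DMSO library of the same replicate number, in 12 of 12 pairs. Of all genes tested, 0.363% were higher in 12 of 12 pairs.

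**Figure D1:**
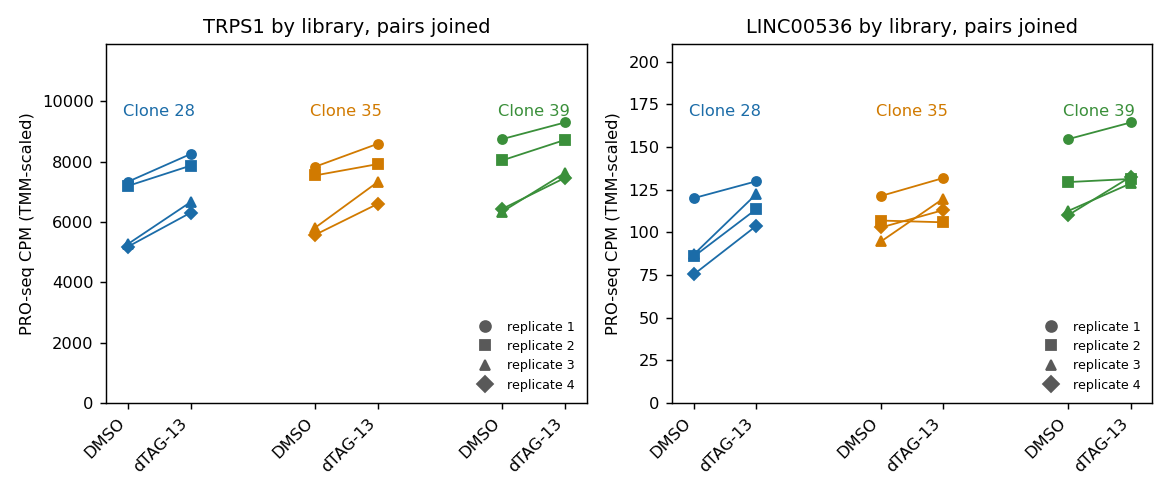
Level of *TRPS1* (left) and of the neighboring lncRNA gene *LINC00536* (right) in TMM-scaled CPM for each library, by clone and treatment, with lines joining the DMSO and dTAG-13 libraries of one replicate number (marker shape). All 12 lines of *TRPS1* and 11 of 12 lines of *LINC00536* go up.

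Without the pairing, *TRPS1* did not pass the threshold. Its log2 change over the 3 clones was 0.19 (SE 0.083, 95% interval 0.016 to 0.36, adjusted p = 0.733, by the edgeR quasi-likelihood test adjusted over all genes by Benjamini and Hochberg). An adjusted p under 0.1 was required, 0.551% of all genes had one, and 0 of the 7 genes did, with edgeR or with DESeq2. At an unadjusted p under 0.05, *TRPS1* was the 1 of 7 that passed, beside 6.32% of all genes. With a term for each pair the estimate was 0.20 (SE 0.026, interval 0.14 to 0.25, adjusted p = 6.65e-04), a 1.15-fold rise, in a fit where 2.33% of all genes passed and 1.40% were higher. That fit takes the pairs as independent. The rise differed by replicate number, as given below, so the SE and p-value of the fit may be too small.

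The 6 other genes did not pass in either fit. With the pair term the log2 change was 0.05 for *RAD21* (95% interval −0.009 to 0.11), 0.02 for *UTP23* (−0.055 to 0.085), −0.03 for *EXT1* (−0.084 to 0.023), 0.04 for *CSMD3* (−0.13 to 0.20), 0.00 for *MED30* (−0.12 to 0.13) and 0.04 for *SLC30A8* (−0.33 to 0.42). Their adjusted p-values were 0.617 to 0.996 in that fit. The intervals of *RAD21*, *UTP23*, *EXT1* and *MED30* ended below the estimate for *TRPS1*, and that of *CSMD3* ended just below it (0.196 against 0.198). The interval of *SLC30A8*, with its 5 to 25 reads, took in changes of either sign larger than that of *TRPS1*. dTAG-13 was higher in 9 of 12 pairs for *RAD21*, 7 for *UTP23*, 7 for *MED30*, 6 for *CSMD3*, 6 for *SLC30A8* and 4 for *EXT1*.

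**Figure D2:**
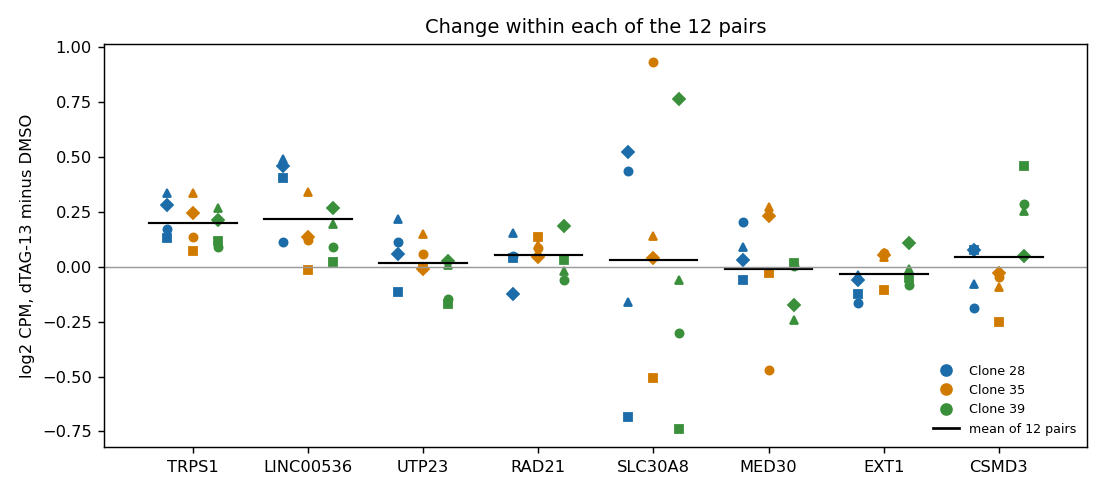
Difference in log2 CPM between the dTAG-13 and the DMSO library of each of the 12 pairs, by gene, with color for the clone, marker shape for the replicate number (circle 1, square 2, triangle 3, diamond 4) and a black line at the mean of the pairs. All 12 points of *TRPS1* lie above 0, from 0.07 to 0.34, while the 6 other members of the set have points on both sides of 0.

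Whether *TRPS1* changed more than each neighbor was then tested directly, as the change of the log2 ratio of the 2 genes within a library. Library scaling cancels in that ratio except through the prior count of 2 added to each gene, which weighs most where reads are few. Every ratio holds the same *TRPS1* level, so the ratios are not independent of each other. Without the pair term 0 of 6 ratios passed (limma, adjusted over the ratios of *TRPS1* to all genes, of which 8.32% rose and 0.00896% fell). The nearest were those to *UTP23* (adjusted p = 0.102) and *EXT1* (adjusted p = 0.114). With the pair term *TRPS1* rose relative to 5 of 6 neighbors, but in that fit it also rose relative to 68.8% of all genes and fell relative to 0.206%. The ratio of *TRPS1* rose by 0.23 on the log2 scale against *EXT1* (SE 0.035, adjusted p = 4.46e-04) and by 0.18 against *UTP23* (SE 0.032, adjusted p = 7.63e-04), and the *TRPS1* change was the larger in 12 of 12 pairs for both genes. It rose by 0.21 against *MED30* (SE 0.058, adjusted p = 0.00826) and by 0.15 against *RAD21* (SE 0.041, adjusted p = 0.00830), with the larger change in 11 of 12 pairs each. Against *CSMD3* it rose by 0.16 (SE 0.067, adjusted p = 0.0605), a call that held in 14 of 24 refits that left out 1 library. Against *SLC30A8* the ratio differed by 0.17 (SE 0.14, adjusted p = 0.306).

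The nearest tested gene also rose in the fit with the pair term, and it is named here because it passed there. *LINC00536*, a long non-coding RNA gene on the same strand at 115950511 to 116325062, lies upstream of *TRPS1*. Its own start is 515 kb from that of *TRPS1* and its 3' end is 140.8 kb from it, with no other tested gene between. With the pair term it was the 1 gene called among the 22 other tested genes within 5 Mb (4.55%, beside 2.33% of all genes), and without it 0 of 22 were called. In Clone 28 it had 120.1, 85.9, 87.1 and 75.4 CPM in DMSO and 129.9, 114, 122 and 104 CPM with dTAG-13. In Clone 35 it had 121, 107, 94.7 and 103 CPM in DMSO and 132, 106, 119.8 and 113 CPM with dTAG-13. In Clone 39 it had 155, 129, 113 and 110.1 CPM in DMSO and 164, 131, 129 and 133 CPM with dTAG-13. It was higher in 11 of 12 pairs, with groups that overlapped in each clone.

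Its log2 change was 0.21 without the pairing (SE 0.075, adjusted p = 0.487, edgeR) and 0.22 with the pair term (SE 0.039, adjusted p = 0.00122). Among the fits without the pairing it passed only with no filter on low counts (adjusted p = 0.0184, edgeR), where *TRPS1* did not (0.758). Its adjusted p was 0.499 with RLE size factors, 0.377 with library totals and 0.171 to 0.707 over left-out libraries (edgeR), and 0.305 with DESeq2. The ratio of *TRPS1* to *LINC00536* differed by −0.02 between treatments (SE 0.040, adjusted p = 0.673 with the pair term, limma), and the change of *TRPS1* was the larger in 6 of 12 pairs. The 22 genes within 5 Mb had a median log2 change of 0.03 with the pair term, against −0.00 over all genes tested, with 1 higher and 0 lower. Over a wider stretch of the arm, 96 tested genes had a median of 0.02, with 2 higher and 0 lower (2.08%, near the 2.33% of all genes), *LINC00536* and *ANGPT1*, which encodes the TIE2 ligand angiopoietin 1 (0.15, adjusted p = 0.0882).

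**Figure D3:**
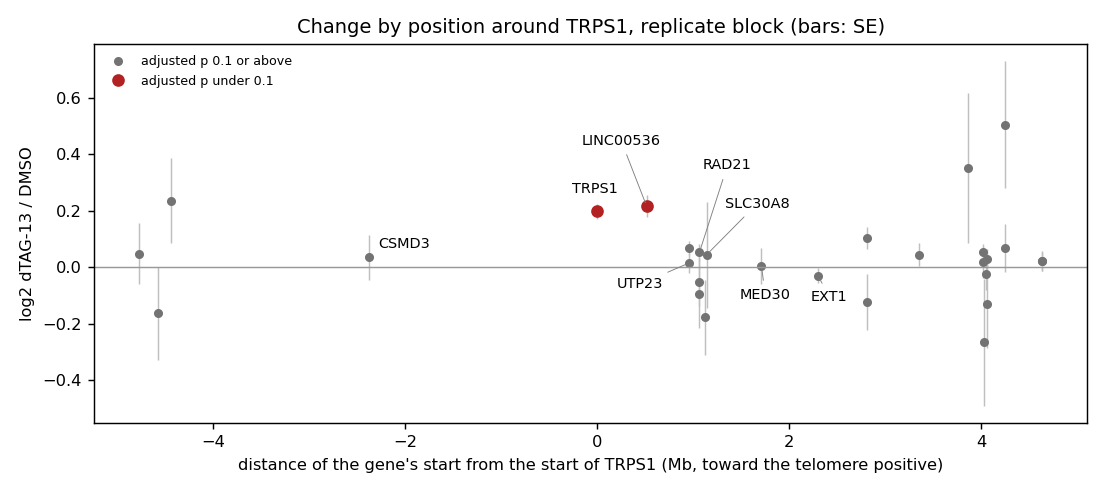
Log2 change with dTAG-13, from the edgeR fit with a term for each pair, against the distance of each tested gene's start from the start of *TRPS1* in Mb, with bars of 1 SE. *TRPS1* (0.20) and *LINC00536* (0.22) are the 2 genes in red, with an adjusted p under 0.1, and the points with larger values further away have wide bars.

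Within single clones, 0 of 7 genes passed without the pair term, in fits that called 0.0537% of all genes in Clone 28 and 0% in Clones 35 and 39. With it, *TRPS1* passed in Clone 28, where it rose by 0.23 on the log2 scale (SE 0.047, adjusted p = 0.0561, edgeR, in a fit that called 1.18% of genes). It did not pass in Clone 35 (0.19, adjusted p = 0.388, with 0.0941% of genes called) or in Clone 39 (0.17, adjusted p = 0.576, with 0.0717% called). *LINC00536* rose by 0.37 in Clone 28 (SE 0.059, adjusted p = 2.16e-04) and had 0.15 and 0.14 in Clones 35 and 39 (adjusted p = 0.608 and 0.769). The difference between clones was tested as an interaction and no member passed it, *TRPS1* included (adjusted p = 1.00 without the pair term, where 0% of genes passed, 0.00448% with it). For *LINC00536* the interaction gave an unadjusted p = 0.0145 and an adjusted p = 1.00 with the pair term.

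The second comparison was the level of each gene in the 3 clones under DMSO. *EXT1* had the smallest p-value among the 7 genes, and its level was highest in Clone 39. *EXT1* had 171, 189.6, 172 and 173 CPM in Clone 28, 172, 192, 185 and 176 CPM in Clone 35, and 265, 258, 247 and 263 CPM in Clone 39. All 8 Clone 39 libraries, DMSO and dTAG-13, were above all 16 others, as was so for 2.96% of genes. *EXT1* was 0.55 higher in Clone 39 than in Clone 28 on the log2 scale (SE 0.058, adjusted p = 4.20e-09, edgeR) and 0.51 higher than in Clone 35 (SE 0.058, adjusted p = 1.87e-08), while Clones 35 and 28 differed by 0.04 (interval −0.078 to 0.16). These contrasts called 26.7%, 22.6% and 5.25% of all genes.

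*UTP23* had 64.9, 71.4, 54.4 and 61.5 CPM in Clone 28, 73.2, 70.9, 63.4 and 66.1 CPM in Clone 35, and 87.4, 92.7, 71.1 and 67.9 CPM in Clone 39. It was 0.34 higher in Clone 39 than in Clone 28 (SE 0.088, adjusted p = 0.00433) and 0.22 higher than in Clone 35 (SE 0.086, adjusted p = 0.0664), although its groups overlapped. *SLC30A8* was counted at 6, 13, 10 and 9 reads in Clone 28, 5, 15, 9 and 9 reads in Clone 35, and 22, 11, 12 and 13 reads in Clone 39. It was 1.03 higher on the log2 scale in Clone 39 than in Clone 35 (SE 0.32, adjusted p = 0.0215, but 0.125 without Clone 39 replicate 1, the library of 22 reads). It was 0.68 higher than in Clone 28 (SE 0.32, adjusted p = 0.144, and 0.0930 with a term for the replicate number). Over the 3 clones jointly, *EXT1* (adjusted p = 1.04e-09), *UTP23* (0.0107) and *SLC30A8* (0.0450) passed, 3 of 7 genes, where 28.5% of all genes passed. *CSMD3* (9.42 to 16.7 CPM over all libraries), *RAD21* (81.1 to 115 CPM) and *MED30* (18.1 to 27.7 CPM) did not pass, with adjusted p-values of 0.477, 0.374 and 0.653.

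The means of *TRPS1* lay in the order Clone 28, Clone 35 and Clone 39, as those of *EXT1* and *UTP23* did, but differed by less than the spread between replicates. Its DMSO means were 6246 ± 1178 CPM in Clone 28, 6691 ± 1161 in Clone 35 and 7392 ± 1194 in Clone 39 (SD, n = 4), and the joint test gave an adjusted p = 0.497 (edgeR). Among libraries of one treatment and one replicate number the order was nonetheless the same in 8 of 8 sets, with Clone 28 lowest and Clone 39 highest. Clone 39 was above Clone 28 in all 8 sets for 12.3% of genes, Clone 39 above Clone 35 for 10.3% and Clone 35 above Clone 28 for 5.72%.

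With a term for the replicate number in a fit of the 12 DMSO libraries, *TRPS1* differed between the clones (adjusted p = 1.30e-13, with 43.0% of genes called in that fit). It was 0.24 higher in Clone 39 than in Clone 28 (SE 0.023, adjusted p = 3.53e-14), 0.15 higher in Clone 39 than in Clone 35 (SE 0.023, adjusted p = 2.22e-07) and 0.09 higher in Clone 35 than in Clone 28 (SE 0.023, adjusted p = 0.00225), in contrasts that called 37.8%, 33.2% and 14.1% of genes. In the same fit *EXT1*, *UTP23* and *SLC30A8* passed again and *RAD21* passed for the first time (adjusted p = 0.0660), by way of a level 0.15 lower on the log2 scale in Clone 35 than in Clone 28 (SE 0.056). *LINC00536* was higher in Clone 39 than in Clone 28 in both fits, by 0.47 (SE 0.13, adjusted p = 0.0134) and 0.46 (SE 0.056, adjusted p = 3.66e-10). With the replicate number it was also 0.22 higher in Clone 35 than in Clone 28 (adjusted p = 0.00369, against 0.533 without) and 0.24 higher in Clone 39 than in Clone 35 (adjusted p = 2.63e-04, against 0.202 without). The labels do not say whether one number marks the same collection in all 3 clones.

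**Figure D4:**
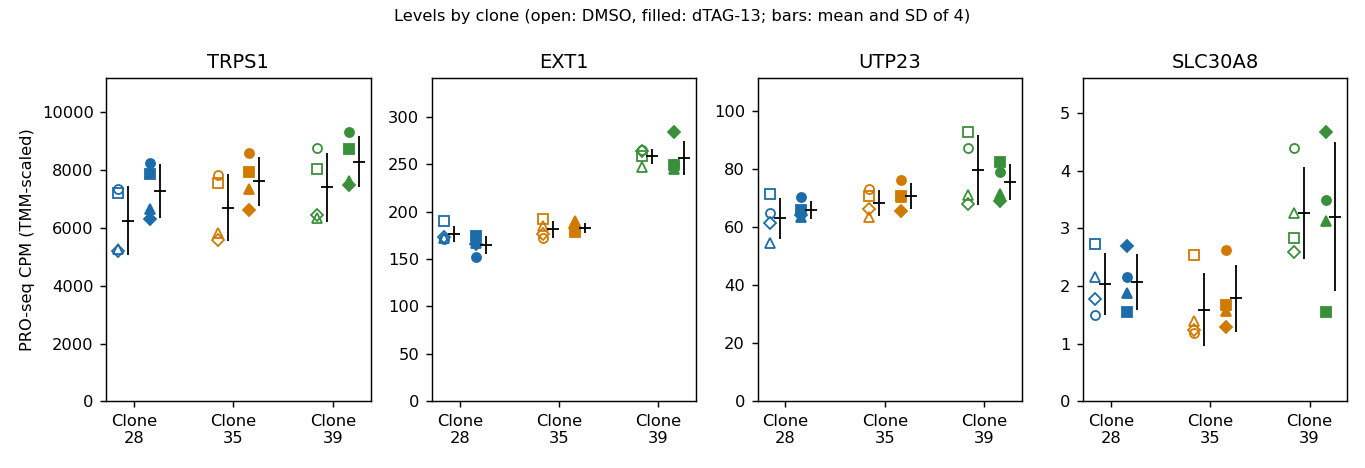
Level of *TRPS1*, *EXT1*, *UTP23* and *SLC30A8* in TMM-scaled CPM by clone, with DMSO libraries as open and dTAG-13 libraries as filled markers, marker shape for the replicate number (circle 1, square 2, triangle 3, diamond 4) and black bars for the mean and SD of 4 libraries. *EXT1* in Clone 39 lies above all other libraries, and *TRPS1* steps up from Clone 28 to Clone 39 within each marker shape.

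The spread of *TRPS1* within groups followed the replicate number. *TRPS1* averaged 8342 ± 696, 7879.9 ± 512, 6504 ± 889 and 6259 ± 802 CPM in replicates 1 to 4 (SD, n = 6 libraries each). Within each treatment all libraries of replicates 1 and 2 were above all libraries of replicates 3 and 4, as was so for 0.219% of genes. In a fit with clone, treatment and number, the number passed for *TRPS1* (adjusted p = 2.50e-08, edgeR), with replicate 4 below replicate 1 by 0.42 on the log2 scale, more than the change with dTAG-13. It passed for 4 of 7 genes, where 37.4% of all genes passed. *UTP23* went the same way, at 75.1, 75.7, 65.7 and 65.7 CPM (adjusted p = 1.85e-04), and *RAD21* went the other way, at 90.6, 100.3, 101 and 106 CPM (adjusted p = 1.78e-04). *CSMD3* was highest in replicate 2, at 14.3 CPM (adjusted p = 0.0484). *EXT1*, *MED30* and *SLC30A8* did not pass (adjusted p = 0.391, 0.560 and 0.879), and the labels do not give the order of the numbers in time.

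**Figure D5:**
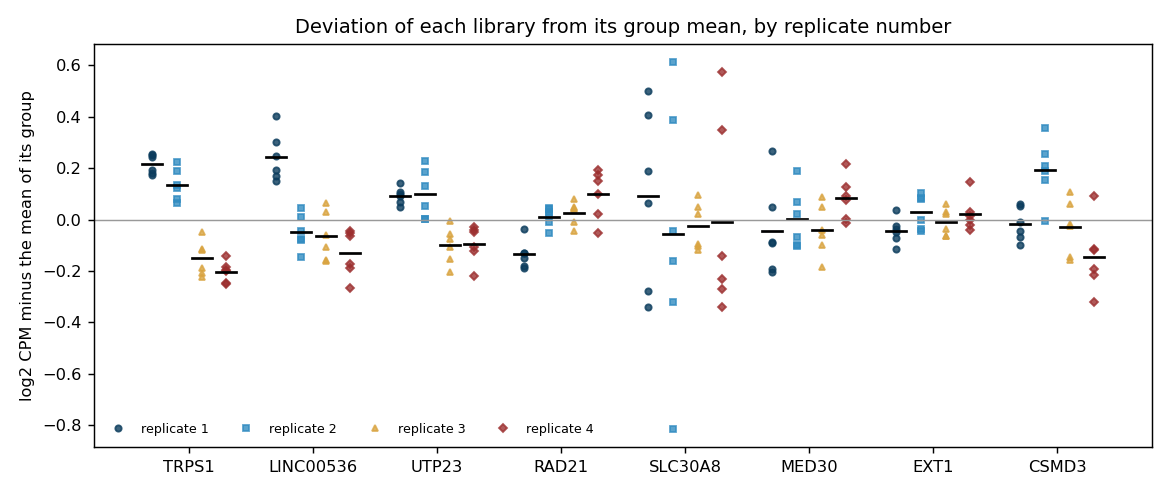
Log2 CPM of each library minus the mean of its clone and treatment group, by gene and replicate number (color and marker shape), with a black line at the mean of the 6 libraries of a number. Replicates 1 and 2 of *TRPS1* all lie above 0 and replicates 3 and 4 all below it, and *RAD21* shows the opposite order for replicate 1.

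The rise of *TRPS1* with dTAG-13 was not of one size over the replicate numbers. The 6 pairs of replicates 3 and 4 rose by 0.21 to 0.34 on the log2 scale and the 6 pairs of replicates 1 and 2 by 0.07 to 0.17, with no overlap, in each of the 3 clones. The difference of the change between replicate numbers, tested with the pair term after the values had been seen, gave an adjusted p = 7.30e-09 for *TRPS1* (edgeR's quasi-likelihood test), where 2.09% of all genes passed. None of the 6 neighbors passed that test (0 of 6, adjusted p 0.531 to 0.999), nor did *LINC00536* (adjusted p = 0.403). The numbers with the larger rise were those with the lower level of *TRPS1* in DMSO. The rise is the dTAG-13 level minus that same DMSO level, so the rise and the DMSO level are not independent. What differed between the collections was not tested. The fits of the 3 clones with a term for each pair take pairs of one number as independent. Their SEs and p-values for *TRPS1* and its ratios may therefore be too small.

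The neighbors on 8q were not the genes most like *TRPS1* over the 24 libraries. Among 14545 genes with a mean of at least 10 CPM, the 5 with the highest Pearson correlation of log2 CPM with *TRPS1* were *KCTD3* (0.96), *ARHGEF38*, a guanine exchange factor gene (0.92), *RERG*, an estrogen-regulated growth inhibitor of the RAS superfamily (0.92), *LURAP1L* (0.92) and *ATAD1*, an ATPase that clears mislocalized mitochondrial membrane proteins (0.91). They lie on chromosomes 1, 4, 12, 9 and 10. *LINC00536* ranked 116th (0.81) and *UTP23* 213th (0.78). The value was 0.35 for *CSMD3*, 0.33 for *EXT1*, −0.33 for *MED30* and −0.41 for *RAD21*. The points share clones and replicate numbers, so these values describe the 24 libraries and carry no p-value. With the pair term for dTAG-13 the log2 change was 0.15 for *KCTD3*, 0.15 for *ARHGEF38*, 0.17 for *RERG*, 0.11 for *LURAP1L* and 0.09 for *ATAD1*. The first 4 of these 5 had an adjusted p under 0.1 in that fit (edgeR) and 0 of the 5 did without the pair term, and since they were picked for their likeness to *TRPS1* in the same libraries, that count is a description. By rank correlation 3 of the 5 stayed among the first 5, and after each group's mean was subtracted 0 of the 5 did.

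The genes that work with each neighbor gave the following counts with the pair term for dTAG-13, beside 1.40% higher and 0.932% lower among all genes. None of 15 cohesin genes and regulators, 30 Mediator subunits, 28 genes of the small subunit processome or 19 zinc transporters passed in either direction (0 of each). Their median log2 changes were −0.00, −0.01, 0.02 and −0.01. Of 20 heparan sulfate synthesis genes 0 were higher and 1 was lower, the sulfotransferase gene *HS6ST1* (−0.19, adjusted p = 0.00275, edgeR), with a list median of 0.03. Of 7 relatives of *TRPS1* and *CSMD3* in the GATA and CSMD families 0 passed, with a median of −0.01.

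Between clones in DMSO, beside 28.5% of all genes, 5 of 15 cohesin genes, 7 of 30 Mediator genes, 0 of 28 processome genes and 4 of 19 zinc transporters differed. So did 12 of 20 heparan sulfate genes and 7 of 7 GATA and CSMD relatives, among them *GATA3*, a luminal lineage factor, which was lower in Clone 39 than in Clone 28 by 0.26 on the log2 scale (adjusted p = 0.00112, edgeR). Of the 22 genes within 5 Mb, 8 differed, and from Clone 28 to Clone 39 there were 4 higher and 3 lower, with a median of 0.07. Over the wider arm 31 of 96 differed, with 16 higher and 11 lower from Clone 28 to Clone 39 and a median of 0.01. The contrast of Clone 39 with Clone 28 called 31.8% of the 22 genes and 28.1% of the 96, near the 26.7% of all genes.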

How the data were processed

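PRO-seq was performed in 3 clones of dTAG-TRPS1 T47D cells with DMSO or dTAG-13, 4 replicates per group. Per the methods and processing notes, the authors trimmed adapters with cutadapt 1.8.1, removed duplicates by unique molecular identifier, discarded ribosomal DNA reads, aligned the rest to hg38 with Bowtie2 2.4.4 and SAMtools 1.9, and used bedtools to count them per gene. The annotation and strand setting are not given in the sources used here. The deposited values are counts, whole numbers per gene and library, not normalized.

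Of 60605 Ensembl identifiers 60463 matched GENCODE release 44. In R 4.3.3 with edgeR 4.0.16, filterByExpr on the 6 groups (minimum count 10) kept 22326 genes. Library sizes were TMM-scaled, and robust quasi-likelihood tests covered every gene kept. The models had clone and treatment, the 6 groups, or clone, treatment and replicate number. Ratios used log2 CPM with a prior count of 2 and limma 3.58.1. The threshold was a Benjamini-Hochberg adjusted p under 0.1, as in the study. The replicate number paired DMSO and dTAG-13 libraries because the study's methods state that the treatments were collected together. That equal numbers within a clone mark one collection is an assumption. The block has a term for each of 12 pairs, whose deviations correlated at 0.19 on average (0.093 to 0.32). Between replicates, chi-square per degree of freedom was 1.65 to 13.6, so no pair agreed within counting error and the spread between replicates exceeds counting error.

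The 7 genes and all gene lists were chosen with earlier results of these data known. Genes named beyond them were the tested genes within 5 Mb past the threshold in either fit (at most 5) and the 5 most correlated with *TRPS1* at a mean of 10 CPM or more. *ANGPT1*, *HS6ST1* and *GATA3* were named after their values were seen. Alternatives were RLE size factors, library totals, no filter, a minimum of 10 counts per library throughout, DESeq2 1.42.0, a threshold of 0.05, the replicate block, the DMSO libraries alone, a prior count of 0.5, rank or group-centered correlation, exon length, and leaving out each library or clone. The block combined with left-out libraries, left-out clones, other scaling or DESeq2, and the test of the dTAG-13 change between replicate numbers, were chosen after seeing the data. Sequence of this region is not reported here. The tests were checked on simulated data in which libraries were drawn independently, with no effect of pairs. That check does not cover pairs of one number that depend on each other.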

Additional observations from a re-analysis of the deposited data

Results flagged for a closer look

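Among 48 groups of 4 libraries, 4 had 1 library set apart from the other 3 by more than Dixon's 95% critical value, and chance alone flags about 1 in 20. *EXT1* was at 190 CPM in Clone 28 DMSO replicate 2, with the other 3 libraries of the group at 171 to 173 CPM. *EXT1* was also at 283 CPM in Clone 39 dTAG-13 replicate 4, with the others at 245 to 249.8 CPM. *MED30* was at 18.2 CPM in Clone 39 DMSO replicate 1, with the others at 21.5 to 21.97 CPM. *LINC00536* was at 164 CPM in Clone 39 dTAG-13 replicate 1, with the others at 129 to 133 CPM.

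The pairs of *CSMD3* moved in opposite directions in 2 clones. dTAG-13 was higher in 4 of 4 pairs of Clone 39, with a mean difference of 0.261 on the log2 scale, and in 0 of 4 pairs of Clone 35. The difference itself was tested as an interaction between clone and treatment and did not pass (unadjusted p = 0.168, adjusted p = 1.00, edgeR's quasi-likelihood test).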

How the results depend on the processing

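Counts are genes with an adjusted p under 0.1 for dTAG-13 unless said otherwise, and the cause of each change was not tested. For the dTAG-13 effect, 3 clones together, the count was 123, against 197 with no filter on low counts, 64 at a threshold of 0.05, 1 without Clone 28, 37 without Clone 35 and 37 without Clone 39, with 66 to 149 over the libraries left out one at a time (66 without Clone 28 DMSO replicate 4). In Clone 28 it was 12, against 7 with RLE size factors, 22 with library totals, 87 with no filter and 2 to 28 over left-out libraries (2 again without Clone 28 DMSO replicate 4). With no filter it went from 0 to 4 in Clone 35, 2 in Clone 39 and 6 for the difference between clones, and Clone 39 had 0 to 1 over left-out libraries. *TRPS1* rose relative to 1857 genes, with 15 to 9507 over left-out libraries (15 without Clone 35 DMSO replicate 3, 9507 without Clone 39 DMSO replicate 1).

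With the replicate block, that is, with the pairing, the counts were 521 together, 263 in Clone 28, 21 in Clone 35, 16 in Clone 39, 1 for the difference between clones and 15356 for ratios. The calls that the block changed for the named genes and ratios are given beside each result. Within it *TRPS1* kept its call in 24 of 24 refits without 1 library, at 0.19 to 0.21 (adjusted p 1.66e-09 to 0.00357, edgeR), and in 3 of 3 without 1 clone, and so did *LINC00536*, with 0.15 without Clone 28 (adjusted p = 0.0655). The ratios of *TRPS1* to *EXT1*, *UTP23*, *MED30* and *RAD21* also passed in all 24 and all 3, and that to *CSMD3* in 14 of 24 and 1 of 3. None of these refits left out a whole replicate number. Without the block the ratios to *EXT1* and *UTP23* passed in 8 of 24 refits each, that to *MED30* in 3 and that to *CSMD3* in 1.

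Changes that never passed took another sign in places. *CSMD3* was at −0.073 without Clone 39, *UTP23* at −0.013 without Clone 28, −0.0094 without Clone 35 and −0.0085 to 0.038 over left-out libraries, and *EXT1* at 0.0019 without Clone 28. *MED30* was at 0.0011 with RLE size factors, 0.00095 with at least 10 counts in every library, 0.0043 with the block, 0.0077 with DESeq2, 0.042 without Clone 39 and −0.027 to 0.027 over left-out libraries. *SLC30A8* ranged from −0.047 to 0.12 and the ratio of *TRPS1* to *LINC00536* from −0.044 to 0.016 over left-out libraries, and the minimum of 10 counts in every library dropped *SLC30A8*.

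*SLC30A8* had 5 to 25 reads in a library and *CSMD3* 44 to 91, the fewest of the 7 genes by median. Between clones, *UTP23* in Clone 39 against Clone 35 was lost with no filter (adjusted p = 0.101), in the DMSO libraries alone (0.140) and without any 1 of 4 libraries (Clone 35 DMSO replicates 3 and 4, Clone 39 DMSO replicates 1 and 2, 0.145 to 0.299). Over the 3 clones *UTP23* was lost without Clone 39 DMSO replicate 2 (0.104), *LINC00536* in the DMSO libraries alone (0.100) and without Clone 39 DMSO replicate 1 (0.152), and *SLC30A8* without Clone 35 DMSO replicate 4 (0.113) or Clone 39 DMSO replicate 1 (0.234). *CSMD3* by replicate number was lost in the DMSO libraries alone (0.386) and without Clone 35 DMSO replicate 2 (0.215) or Clone 39 dTAG-13 replicate 2 (0.119). The clone counts (6361 genes, 5565 to 9132) and the replicate-number counts (8355 genes, 6448 to 8725) stayed within 1.5 times under every alternative run.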
